A study of Mus musculus with 5 samples.

Results

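The adhesion G protein-coupled receptors are a family of membrane receptors, and 7 of them were selected by name, of which Adgre1, Adgre4, Adgre5, Adgrg1, Adgrg3 and Adgrl4 are described. Each was read from probe sets annotated with exactly 1 gene symbol, using the brightest such probe set by its average over the arrays. This gave values for 6 of the 7 genes, among 19938 named genes in all, and each of the 6 had 1 probe set. The other gene was not analysed here. The 6 were chosen with their values on these arrays known, so their levels and differences are given as a description, with no test.

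The arrays measured total RNA from sorted, untreated bone marrow cells of wild-type C57Bl/6 mice, with 1 array for each of 5 populations. All 5 gates were lineage-negative and CD115-positive. The monocyte-dendritic cell progenitor (MDP) was sorted as CD117+ CD135+, the common dendritic cell progenitor (CDP) as CD117int CD135+, and the common monocyte progenitor (cMoP) as CD117+ CD135-. Classical monocytes were Ly6C+ TremL4- and nonclassical monocytes Ly6C- TremL4+. MDP is the progenitor that monocytes and dendritic cells share, CDP is committed to dendritic cells, and cMoP is committed to monocytes. The sources used here do not say how many mice went into an array.

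Receptors of this family carry a long extracellular region that binds proteins of other cells or of the matrix. In most of them this region is cut from the membrane-spanning part during synthesis and stays attached to it, and its removal exposes a short tethered stretch that activates the receptor. Signals then pass through heterotrimeric G proteins, often to the GTPase RhoA and the cytoskeleton. Adgre1, Adgre4 and Adgre5 belong to the subgroup with epidermal growth factor-like repeats, which is found mainly on leukocytes. Adgre1 encodes F4/80, the classical surface marker of mouse macrophages, and Adgre5 encodes CD97. Adgrg1 encodes GPR56, which is found on blood stem cells, and Adgrg3 encodes GPR97, known from human neutrophils. Adgrl4 encodes ELTD1, known mainly from endothelium.

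Values are log2 units, so a difference of 1 is 2-fold. Between 2 arrays, a gene passed the threshold if it differed by at least 1 and its brighter array reached a floor of 6.27, which is the median value of the 19938 genes on the 5 arrays. Where the dimmer value was under this floor, the fold was taken against the floor itself and is written as "at least". The array medians over all probe sets lay between 6.02 and 6.16, and between 9831 and 10167 named genes per array were at or above the floor. The sorting genes followed the gates: Kit (CD117) was at 10.11, 8.16 and 9.37 in MDP, CDP and cMoP and at 5.79 and 5.61 in classical and nonclassical monocytes, and Treml4 was at 11.78 in nonclassical monocytes and at most 6.18 elsewhere. Flt3 (CD135) was at 10.75, 10.74 and 6.40 in MDP, CDP and cMoP, and Csf1r (CD115) was between 10.03 and 12.21 on all arrays. With 1 array per population there is no spread between replicates, and precision is limited by the number of arrays. In sorted bulk samples, fewer cells of a type and less RNA per cell cannot be told apart.

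The 6 receptors divided into 2 groups of 3. Adgre1, Adgre4 and Adgre5 were higher in both monocyte arrays than in all 3 progenitor arrays by 1 log2 unit or more, a pattern met by 2.34% of the 11058 genes at or above the floor on some array. Adgrg1, Adgrg3 and Adgrl4 were higher in all 3 progenitors than in both monocytes by the same margin, as 0.769% of the genes were. Because the genes were chosen on these values, nothing is read from the counts.

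**Figure D1:**
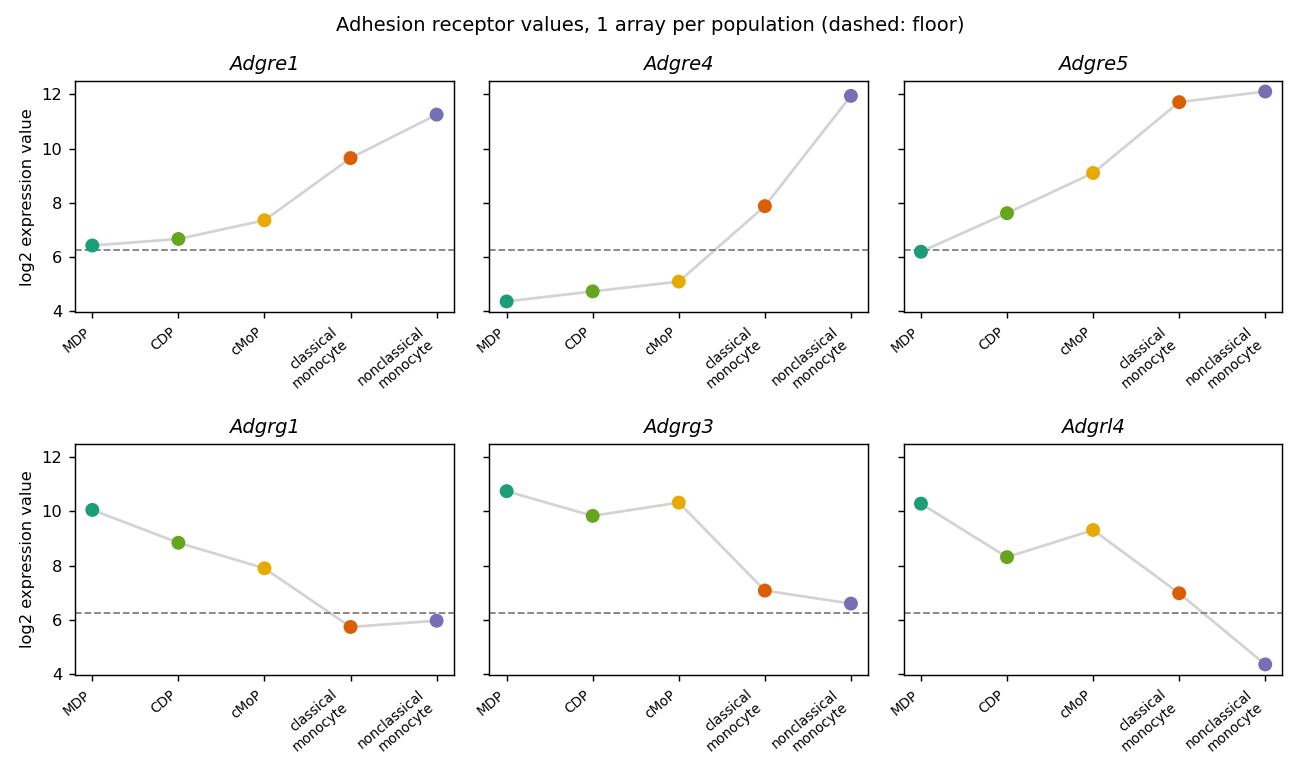
Log2 expression value (vertical axis) of the 6 receptors on the array of each population (horizontal axis, 1 point per array), with the floor of 6.27 as a dashed line and grey lines only to guide the eye. Adgre1, Adgre4 and Adgre5 are highest in nonclassical monocytes, and Adgrg1, Adgrg3 and Adgrl4 are highest in MDP.

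Adgre4, also called FIRE, is a receptor of mouse myeloid cells. Its values were 4.37 in MDP, 4.74 in CDP, 5.10 in cMoP, 7.88 in classical monocytes and 11.94 in nonclassical monocytes. The 3 progenitor arrays thus lay under the floor and both monocyte arrays above it. The span from lowest to highest array was 7.57 log2 units, rank 3 among the 11058 genes, and its lower end is a dim value. Nonclassical monocytes were 16.7-fold above classical ones (4.06 log2 units), rank 18 among the higher genes of that comparison. Classical monocytes were at least 3.06-fold above cMoP (2.78). Among the progenitors all 3 differences were under 1, between 0.36 and 0.73, with neither array of any pair at the floor.

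Adgre1 had values of 6.43 in MDP, 6.67 in CDP, 7.36 in cMoP, 9.65 in classical monocytes and 11.25 in nonclassical monocytes. All 5 arrays were at or above the floor, MDP only by a small margin. Classical monocytes were 4.91-fold above cMoP (2.29), and nonclassical monocytes were 3.03-fold above classical ones (1.60). The progenitors lay closer together, with cMoP above MDP by 0.92 and above CDP by 0.69, and CDP above MDP by 0.23. The difference between cMoP and MDP reached the threshold under other scalings, at 1.0 after quantile normalization and 1.04 after centring the arrays on their medians.

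Of 13 other macrophage genes, the number at or above the floor was 0 in MDP, 1 in CDP, 1 in cMoP, 3 in classical monocytes and 2 in nonclassical monocytes. Their summed signal, on the log2 scale, was 9.0, 9.29, 9.22, 10.56 and 10.54 in the same order. Hmox1, the heme-degrading enzyme, was at 9.84 in both monocyte arrays and at 5.75, 6.38 and 6.87 in MDP, CDP and cMoP. The complement genes C1qa, C1qb and C1qc, which mark tissue macrophages, were under the floor on all 5 arrays, as were Vcam1, Cd5l, Marco, Timd4, Mertk, Mrc1 and Spic. Siglec1 was at 6.59 in nonclassical and 6.78 in classical monocytes, and Axl was at 6.40 in classical monocytes. Of 12 genes of eosinophils, basophils and mast cells, 2 or 3 were at or above the floor on each array. These were Siglecf (6.44 to 7.0), the basophil protease gene Mcpt8 (6.71 to 8.95) and, on 4 arrays, Gata2 (at most 6.69), while the others, among them Ccr3, Epx, Prg2 and Il5ra, were under the floor on every array. The summed signal of this list, on the log2 scale, was 9.95, 9.54, 9.89, 9.08 and 9.46 from MDP to nonclassical monocytes. The part of other cells in the Adgre1 values was not tested beyond these levels.

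Adgre5 had values of 6.20 in MDP, 7.62 in CDP, 9.10 in cMoP, 11.71 in classical monocytes and 12.10 in nonclassical monocytes. It was the receptor of the 6 that differed past the threshold between each pair of progenitor arrays, with CDP at least 2.56-fold above MDP (1.42), cMoP at least 7.12-fold above MDP (2.90) and cMoP 2.78-fold above CDP (1.48). The cMoP difference from MDP ranked 6 among the higher genes of that comparison. Classical monocytes were 6.11-fold above cMoP (2.61). Nonclassical and classical monocytes differed by 0.38, so the step between the monocyte subsets that was wide for Adgre4 was under the threshold for Adgre5.

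Adgre1 and Adgre5 shared 1 order of arrays, with nonclassical monocytes highest, followed by classical monocytes, cMoP, CDP and MDP. Of the 11058 genes, 1.68% had this order. Adgre4 also had nonclassical above classical monocytes, and its 3 progenitor values, all under the floor, have no firm order. The 3 Adgre genes differed in where the widest measured step lay. For Adgre4 it stood between the monocyte subsets (4.06), and for Adgre1 between cMoP and the classical monocyte (2.29). For Adgre5 the widest of the 5 comparisons was cMoP against MDP (2.90, at least 7.12-fold), followed by the classical monocyte against cMoP (2.61, 6.11-fold). The gap between the highest array and the next was 1.60 for Adgre1, 4.06 for Adgre4 and 0.38 for Adgre5. Adgre1 and Adgre4 thus led the nonclassical array by 1 log2 unit or more, as 2.88% of the genes did.

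Adgre1 and Adgre4 lie on chromosome 17 with 62 protein-coding genes between them in the RefSeq order (GRCm38.p6, used for names and order), and Adgre5 lies on chromosome 8 next to Adgrl1. The genes beside Adgre4 were looked at after its values were known. Pot1b, which encodes a telomere-binding protein, stands next to Adgre4 on 1 side and was at 11.57 in nonclassical monocytes and 9.54 in classical monocytes, a difference of 2.03. Zfp119a, a zinc finger gene on the other side, was at 8.03 in nonclassical and 6.02 in classical monocytes, a difference of 2.01. Further out, St6gal2, Vmn2r118, Zfp959 and Zfp119b were under the floor on every array. Pot1b was above the floor on all 5 arrays and Zfp119a on the nonclassical array, whereas Adgre4 was above it on both monocyte arrays, so the 3 profiles were not the same outside the nonclassical array. Next to Adgre5, Adgrl1, the gene of latrophilin 1, was between 6.35 and 6.73 on all arrays. Vav1, next to Adgre1, was between 9.32 and 9.66.

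**Figure D2:**
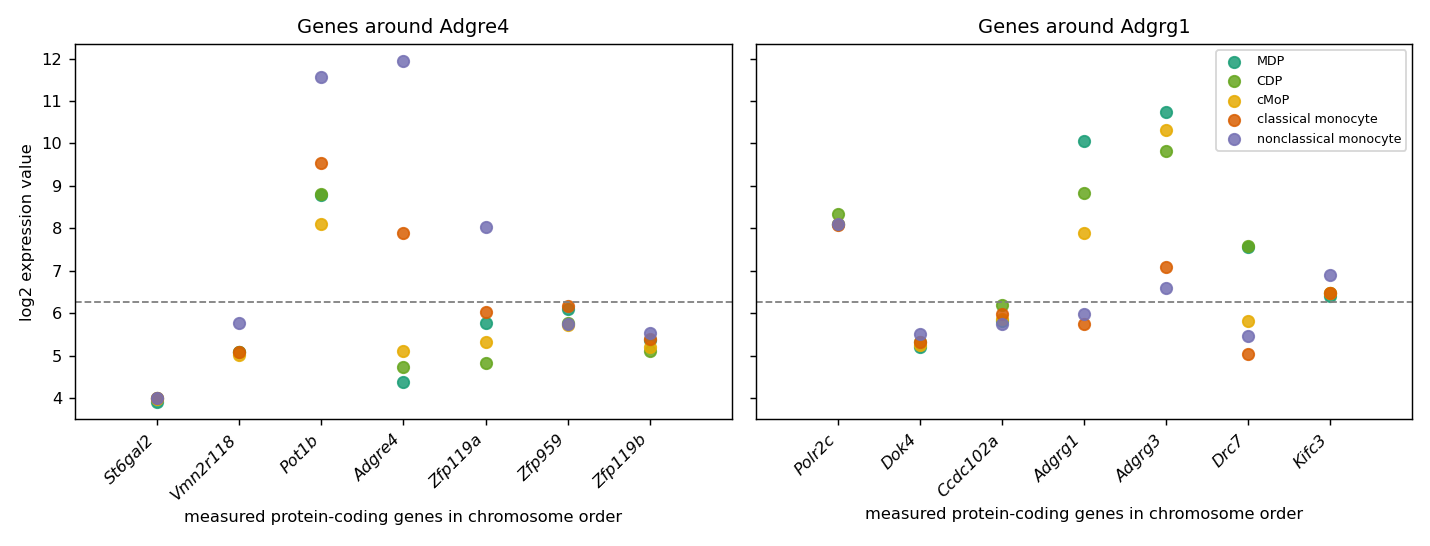
Log2 expression values (vertical axis) of the measured protein-coding genes around Adgre4 (left) and Adgrg1 (right) in chromosome order (horizontal axis), with 1 point per population and the floor of 6.27 dashed. The nonclassical points of Pot1b, Adgre4 and Zfp119a, at 11.57, 11.94 and 8.03, stand above the other points of those genes. Adgrg1 and Adgrg3 stand side by side with their progenitor points on top.

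RefSeq promoter windows (GRCm38.p6) were found for 4 of the 6 receptors and not for Adgre1 and Adgre5. The 250 bases before the start of Adgre4, chr17:55749734-55749983 on the plus strand, are shown because this gene had the widest span. In all, 4 short motifs of blood cell transcription factors were searched on both strands. The core of ETS family sites was written as GGAAGT. The RUNX family was represented by the letters TGTGGT, and GATA factors by AGATAA. For the C/EBP family the motif was TTGCNNAA, where N is any base. Among 32851 promoter windows of this length, 19.7% held the ETS core, 14.0% the RUNX letters, 9.99% the GATA letters and 9.56% the C/EBP letters. The capitals mark a match to the C/EBP letters on the minus strand, from 46 to 39 bases before the start, which overlaps no other match. A match is a description of the letters, and binding was not measured.
Adgre4: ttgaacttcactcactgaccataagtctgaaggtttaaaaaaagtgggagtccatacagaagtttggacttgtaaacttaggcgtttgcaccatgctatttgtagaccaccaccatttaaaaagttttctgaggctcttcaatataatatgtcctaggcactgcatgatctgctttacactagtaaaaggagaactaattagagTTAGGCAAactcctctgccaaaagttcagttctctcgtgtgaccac

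Adgrg3 had values of 10.74 in MDP, 9.83 in CDP, 10.32 in cMoP, 7.08 in classical monocytes and 6.60 in nonclassical monocytes. All 5 arrays were above the floor, and the higher monocyte value lay 2.75 below the lowest progenitor value. Classical monocytes were 9.46-fold below cMoP (-3.24), rank 10 among the lower genes of that comparison. No pair of progenitors differed by 1 log2 unit, with CDP minus MDP at -0.91, cMoP minus MDP at -0.42 and cMoP minus CDP at 0.49. The monocyte subsets differed by -0.48. Adgrg3 was therefore the gene among the 6 whose values changed past the threshold at 1 step of the 5, the classical monocyte against cMoP.

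Adgrg3 is expressed by human neutrophils, so neutrophil genes were set beside it. The summed signal of 12 such genes, on the log2 scale, was 9.82 in MDP, 9.80 in CDP, 11.92 in cMoP, 13.90 in classical monocytes and 10.02 in nonclassical monocytes, with 4, 4, 7, 8 and 4 genes at or above the floor. This sum was highest in classical monocytes, where its brightest genes were S100a8 (12.64), S100a9 and Mmp8. It cannot separate neutrophil RNA from expression of these genes by the sorted cells themselves. Not every gene of the list followed the sum: the chemokine receptor gene Cxcr2 was at 7.55 in MDP and 6.88 in cMoP and under the floor in CDP (5.37), classical monocytes (5.51) and nonclassical monocytes (5.22). It was lower in CDP than in MDP (-2.18), where Adgrg3 had -0.91, and lower in classical monocytes than in cMoP (-1.37), where Adgrg3 had -3.24. The part of neutrophil RNA in the Adgrg3 values was not tested. Ltf and Retnlg, genes of maturing neutrophils, and Mmp9 were under the floor on all arrays. Other genes of the list were above it in classical monocytes: Mmp8, a collagenase, was at 11.28 and S100a9 at 12.07. Lcn2 was at 10.45 there, Padi4 at 7.46, Camp at 6.89 and Ngp at 6.62. In the classical monocyte against cMoP, 6 of the 9 genes tested were higher and 1 lower, with 7.01% and 4.40% of all genes.

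Adgrg1 had values of 10.05 in MDP, 8.84 in CDP, 7.90 in cMoP, 5.74 in classical monocytes and 5.97 in nonclassical monocytes. The 3 progenitor arrays were above the floor and both monocyte arrays under it. CDP was 2.32-fold below MDP (-1.22), and cMoP was 4.46-fold below MDP (-2.16), rank 14 among the lower genes of that comparison. The difference of cMoP from CDP was -0.94. Classical monocytes were at least 3.09-fold below cMoP (-2.16), and the monocyte subsets differed by 0.23 with both under the floor. MDP led the next array by 1.22 log2 units, and it led by 1 log2 unit or more for 0.244% of the genes. Of 11 measured stem and early progenitor genes, 8 were at or above the floor in MDP, 6 in CDP, 6 in cMoP, 4 in classical and 3 in nonclassical monocytes. Their summed signal, on the log2 scale, was 12.29, 11.08, 11.45, 9.52 and 9.47 in the same order. Cd34, at 11.51 in MDP, 10.20 in CDP and 10.82 in cMoP, was the brightest gene of the list there and weighs most in those sums. In CDP against MDP, 5 of the 8 genes tested were lower and 0 higher, with 1.06% and 1.15% of all genes. In cMoP against MDP, 4 of 8 were lower and 0 higher, with 1.40% and 1.44% of all genes. Meis1, Hoxa9, Angpt1 and Erg were lower in both, and Cd34 in the first. In cMoP against CDP, 0 of 6 passed the threshold in either direction, where 3.23% of all genes were higher and 2.20% lower. In the classical monocyte against cMoP, 2 of 6 were lower and 0 higher, with 4.40% and 7.01% of all genes. In the nonclassical against the classical monocyte, 1 of 4 was lower and 0 higher, with 9.82% and 3.55% of all genes. GPR56 is also known from human natural killer cells. Of 12 genes of natural killer and T cells, 2 were at or above the floor on each array except that of nonclassical monocytes, where it was 1. Nkg7, a granule protein gene, was at 9.97 in MDP, 7.77 in CDP, 11.70 in cMoP, 7.16 in classical monocytes and 6.00 in nonclassical monocytes, and the perforin gene Prf1 was between 6.40 and 6.43 on all arrays. The others, among them Ncr1, Klrb1c, Gzma, Gzmb and Eomes, were under the floor on every array. The summed signal of the list, on the log2 scale, was 10.44, 9.29, 11.87, 9.08 and 8.84 from MDP to nonclassical monocytes, and its part in the Adgrg1 values was not tested.

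Adgrl4 had values of 10.28 in MDP, 8.31 in CDP, 9.31 in cMoP, 6.98 in classical monocytes and 4.36 in nonclassical monocytes. It was the gene of the 6 that passed the threshold between the monocyte subsets in the lower direction, with nonclassical monocytes at least 1.64-fold below classical ones (-2.62), a bound that is low because the nonclassical value lay under the floor. CDP was 3.91-fold below MDP (-1.97), rank 8 among the lower genes. cMoP was 1.95-fold below MDP (-0.96) and 2.01-fold above CDP (1.0). Both of these values lay at the threshold: after quantile normalization they were -1.03 and 0.92. Classical monocytes were 5.03-fold below cMoP (-2.33).

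Because Adgrl4 is known from endothelium, 12 endothelial genes were set beside it. Cdh5, Kdr, Tek, Emcn, Plvap, Cldn5, Esam, Sox17 and Mmrn2 were under the floor on all 5 arrays, among them the defining cadherin Cdh5, at 5.23 to 5.26. Pecam1, which leukocytes also express, was at 9.38, 9.43, 8.72, 6.89 and 7.76 from MDP to nonclassical monocytes, and Egfl7 at 8.25, 7.74, 7.33, 6.24 and 7.03. Vwf was between 6.29 and 6.91. The summed signal of the list, on the log2 scale, was 10.40, 10.36, 9.92, 9.08 and 9.58 in the same order. Pecam1 was the brightest gene of the list on every array, and the genes under the floor also enter the sum. The part of endothelial RNA in the Adgrl4 values was not tested.

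Adgrg3 and Adgrl4 shared the order MDP, cMoP, CDP, classical monocyte and nonclassical monocyte, which 4.80% of the genes had. Adgrg1 differed from them in having CDP above cMoP, and its 2 monocyte values, both under the floor, have no firm order. Among the comparisons in which both arrays were at or above the floor, the widest difference was that of the classical monocyte from cMoP for Adgrg3 (-3.24) and Adgrl4 (-2.33), and that of cMoP from MDP for Adgrg1 (-2.16). Centred on each gene's mean, the profiles of Adgrg1 and Adgrg3 differed by a root mean square of 0.66 log2 units, those of Adgrg3 and Adgrl4 by 0.76 and those of Adgrg1 and Adgrl4 by 1.13. Within the Adgre genes the same measure was 0.80 for Adgre1 and Adgre5, 1.09 for Adgre1 and Adgre4 and 1.42 for Adgre4 and Adgre5.

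Adgrg1 and Adgrg3 are neighbours on chromosome 8 with 0 protein-coding genes between them. The next gene after Adgrg3, Drc7, which encodes a ciliary protein, was at 7.55 in MDP and 7.59 in CDP and under the floor in cMoP (5.81), classical monocytes (5.05) and nonclassical monocytes (5.47). Its difference of cMoP from MDP was -1.74, where that of Adgrg1 was -2.16 and that of Adgrg3 -0.42. On the other flank, Ccdc102a and Dok4, the nearest measured genes, were under the floor on all arrays, and Polr2c, which encodes an RNA polymerase subunit, was between 8.07 and 8.33. The high progenitor values thus ran over Adgrg1 and Adgrg3, and over Drc7 in MDP and CDP, and not over these genes of the other flank.

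The promoter windows of the progenitor receptors are shown because these 3 genes shared the higher progenitor values and 2 of them are neighbours. Adgrg1 has 2 windows in RefSeq, chr8:94976859-94977108 and chr8:94984149-94984398. The window of Adgrg3 is chr8:95017442-95017691 and that of Adgrl4 chr3:151437632-151437881, all on the plus strand of GRCm38.p6. None of these windows held any of the 4 motifs, so they carry no capitals, which says only that these letters are not in them. Their share of G and C was 60.8% and 59.2% for Adgrg1, 55.2% for Adgrg3 and 56.8% for Adgrl4, against 39.6% for Adgre4 and a median of 52.4% over all windows.
Adgrg1 window 1: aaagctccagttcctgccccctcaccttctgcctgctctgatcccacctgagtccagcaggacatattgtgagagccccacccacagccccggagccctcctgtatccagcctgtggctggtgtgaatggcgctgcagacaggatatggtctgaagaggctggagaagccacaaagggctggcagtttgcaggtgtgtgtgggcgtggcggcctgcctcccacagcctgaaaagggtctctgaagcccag
Adgrg1 window 2: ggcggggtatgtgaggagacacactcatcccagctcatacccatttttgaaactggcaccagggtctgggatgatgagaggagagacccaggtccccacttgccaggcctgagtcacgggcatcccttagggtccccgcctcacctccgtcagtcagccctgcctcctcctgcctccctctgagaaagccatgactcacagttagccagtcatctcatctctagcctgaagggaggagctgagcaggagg
Adgrg3: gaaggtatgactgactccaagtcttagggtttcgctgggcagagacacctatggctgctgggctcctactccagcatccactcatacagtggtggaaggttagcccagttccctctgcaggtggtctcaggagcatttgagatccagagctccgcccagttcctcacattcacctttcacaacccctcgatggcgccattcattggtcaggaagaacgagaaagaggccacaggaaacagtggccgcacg
Adgrl4: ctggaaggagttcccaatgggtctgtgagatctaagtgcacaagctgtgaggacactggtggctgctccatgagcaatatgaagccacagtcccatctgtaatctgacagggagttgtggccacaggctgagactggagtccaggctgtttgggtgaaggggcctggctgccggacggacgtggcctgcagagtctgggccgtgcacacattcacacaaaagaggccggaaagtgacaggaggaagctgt

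The 5 comparisons can be read across the 6 receptors. In CDP against MDP, 1 receptor was higher (Adgre5) and 2 lower (Adgrg1 and Adgrl4), where 1.15% of all genes with a value at the floor were higher and 1.06% lower. In cMoP against MDP, 1 was higher (Adgre5) and 1 lower (Adgrg1), with 1.44% and 1.40% of all genes. In cMoP against CDP, Adgre5 and Adgrl4 were higher and 0 were lower, with 3.23% and 2.20% of all genes. In the classical monocyte against cMoP, all 6 passed the threshold, the 3 Adgre genes higher and the other 3 lower, with 7.01% and 4.40% of all genes. In the nonclassical against the classical monocyte, Adgre1 and Adgre4 were higher and Adgrl4 lower, with 3.55% and 9.82% of all genes. The genes were picked with these differences in view, and the shares are given as background alone.

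**Figure D3:**
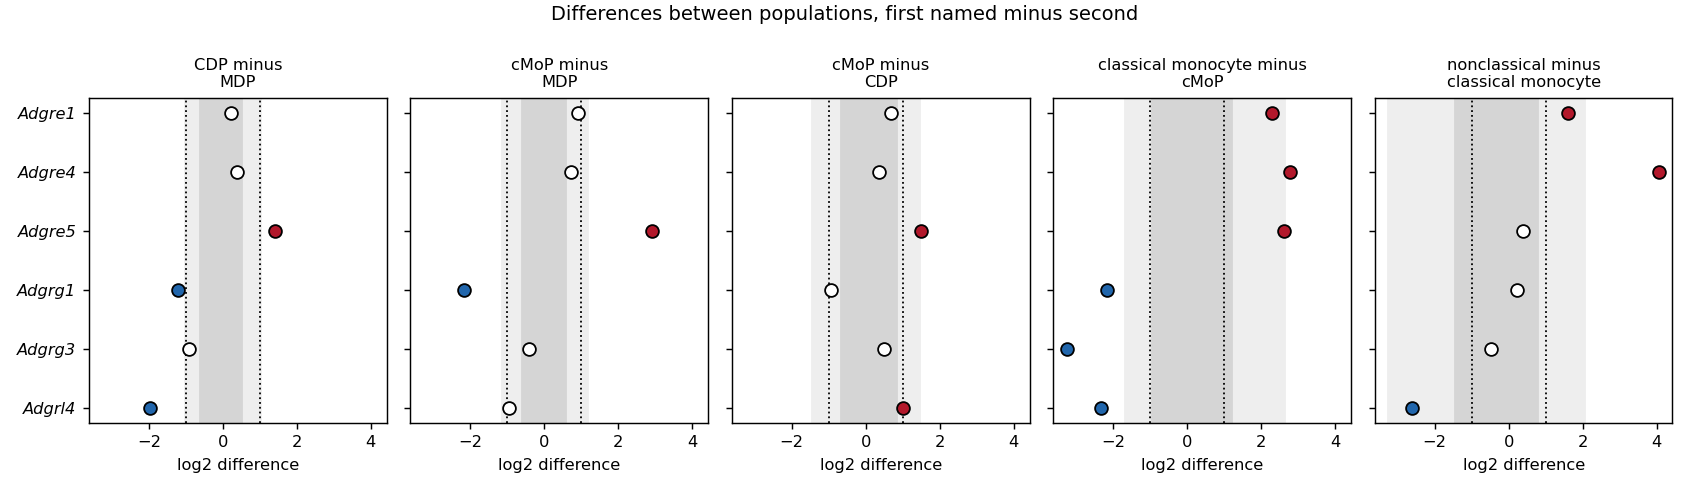
Log2 difference (horizontal axis) of each receptor (rows) in the 5 comparisons, the first population named minus the second, with 1 array each. Filled points passed 1 log2 unit (dotted lines) with the higher array at the floor, red for higher and blue for lower. The dark and light bands hold the central 90% and 98% of all genes tested. In the classical monocyte against cMoP all 6 points lie past the dotted lines.

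Of the other receptors of the family, 22 had a value. Of these, 14 were under the floor on all 5 arrays, and 16 held the same value to the last digit on at least 2 arrays, whereas the 6 receptors had 0 tied pairs among 60. The 8 at or above the floor somewhere were Adgra1, Adgra2, Adgra3, Celsr1, Celsr3, Adgrg7, Adgrl1 and Adgrl2, and 5 of them spanned less than 1 log2 unit over the arrays. Celsr3, a cadherin-type receptor of planar cell polarity, spanned 1.32, with 7.15 in classical monocytes against 5.83 in MDP, without passing the threshold in any of the 5 comparisons.

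Adgrg7, which encodes GPR128, was the other family member with the progenitor pattern. Its values were 8.51 in MDP, 6.79 in CDP, 7.90 in cMoP, 5.69 in classical monocytes and 5.30 in nonclassical monocytes, with the progenitors in the same order as for Adgrg3 and Adgrl4 and both monocyte values under the floor. CDP was 3.28-fold below MDP (-1.72), cMoP 2.16-fold above CDP (1.11) and classical monocytes at least 3.10-fold below cMoP (-2.21). Adgrl2, the gene of latrophilin 2, was higher in classical monocytes than in cMoP (7.45 against 6.30, a difference of 1.15) and lower in nonclassical than in classical monocytes (5.84 against 7.45, -1.62). These values come from 1 of its 8 probe sets, and the probe sets disagreed: the first difference ran from -0.83 to 1.15 and the second from -1.62 to 1.05 over the 8.

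**Figure D4:**
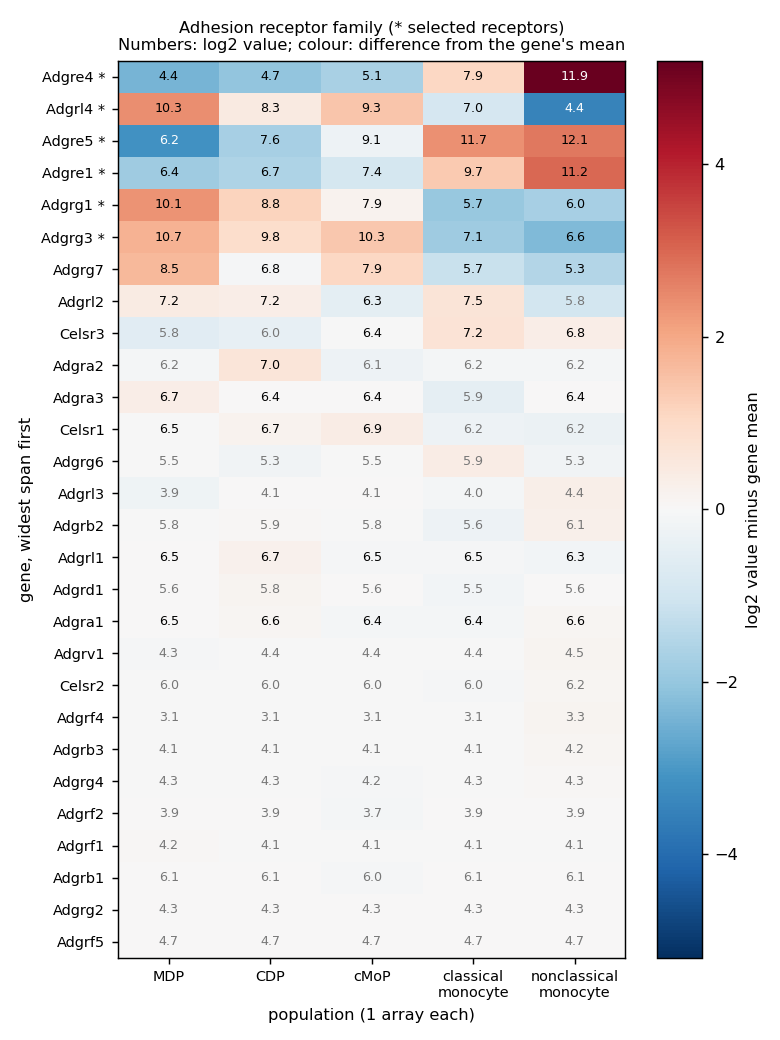
Log2 values (numbers) of the 28 measured family members (rows, widest span first) on the 5 arrays (columns), coloured by the difference from each gene's own mean. Grey numbers in pale cells lie under the floor of 6.27, and an asterisk marks the 6 receptors. Levels are not compared between genes, since each probe set has its own response. Adgrg7 follows the 6 receptors, and most other rows are nearly white.

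For each receptor the 3 genes with the closest profile were named by the smallest root mean square difference over the 5 arrays, after centring each gene on its own mean. For Adgre1 they were Zfyve9, Pilrb1, an activating immune receptor, and Ceacam1, an adhesion molecule, each at 0.29 log2 units. For Adgre4 they were the CD300 family receptor Cd300ld (0.51), Apoe (0.69), the gene of apolipoprotein E, and Pilrb2 (0.76). For Adgre5 they were Cybb (0.45), a subunit of the phagocyte oxidase, Mcemp1 (0.52) and Gm9733 (0.55). Adgrg1 stood nearest to Il12a (0.25), an interleukin-12 subunit, the ETS factor Erg (0.38) and the receptor Cd27 (0.43). Adgrg3 stood nearest to Igfbp4, the ubiquitin ligase Nedd4 and Nme4 (0.28 each), and Adgrl4 to the transcription factors Myc and Myb (0.46 each) and to Cd34 (0.55). Part of the likeness rests on values under the floor, which have no firm order. Zfyve9, for example, was at 4.22, 4.46 and 4.67 in MDP, CDP and cMoP, and Cd300ld at 4.70, 5.08 and 4.85. Pilrb1 was at 5.22 in MDP and 5.83 in CDP, and Il12a at 5.33 and 5.70 in classical and nonclassical monocytes. With 5 arrays such likeness is a description of these arrays.

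**Figure D5:**
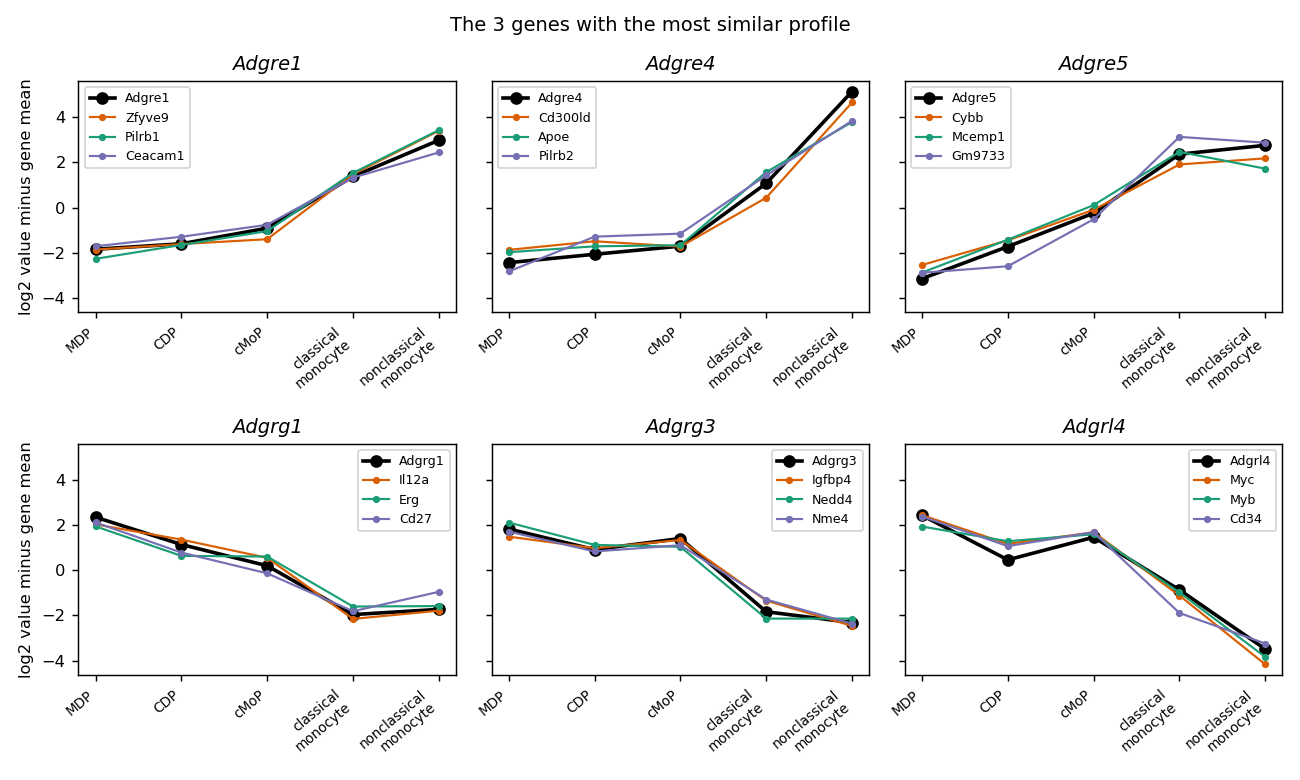
Log2 value minus the gene's mean over the 5 arrays (vertical axis) for each receptor (black) and the 3 genes with the closest profile (colours), by population (horizontal axis, 1 array each). The profiles of Adgre1 and its 3 nearest genes lie within a root mean square of 0.29, and those of Adgre4 and its nearest within 0.76.

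Proteins known to bind these receptors or to sit beside them in the membrane formed a list of 21 genes, of which 20 were measured. Cd55, the ligand of CD97, was between 3.12 and 3.38 on all arrays, under the floor. Cd81, a tetraspanin that forms a complex with GPR56, was at 10.09 in MDP, 8.85 in CDP, 10.07 in cMoP, 7.03 in classical monocytes and 9.16 in nonclassical monocytes. It was lower in CDP than in MDP (-1.24), higher in cMoP than in CDP (1.22), lower in classical monocytes than in cMoP (-3.05) and higher in nonclassical than in classical monocytes (2.14). Cd81 and Adgrg1 were thus both lower in CDP than in MDP and in classical monocytes than in cMoP. They parted in cMoP, where Cd81 differed from MDP by -0.02 and Adgrg1 by -2.16, and in nonclassical monocytes, where Adgrg1 was under the floor. Prtn3, the gene of proteinase 3, which binds GPR97 on human neutrophils, was at 12.21, 11.66, 13.04, 10.91 and 6.33 from MDP to nonclassical monocytes.

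In the nonclassical against the classical monocyte, 4 of the 12 genes of this list with a value at the floor were higher and 2 lower, with a list median of 0.31 against -0.09 for all genes tested. Of all genes tested, 3.55% were higher and 9.82% lower. The higher ones were the tetraspanin Cd9 (2.50), Cd81, the integrin chain Itgav (1.92) and Tgm2 (1.30), the transglutaminase that GPR56 binds. The lower ones were Itga5 (-1.10), an integrin chain that CD97 binds, and Prtn3 (-4.59). In the classical monocyte against cMoP, 0 of 12 were higher and 2 lower (Cd81 and Prtn3 at -2.13), with 7.01% and 4.40% of all genes. In cMoP against CDP, 2 of 12 were higher (Cd81 and Prtn3 at 1.38) and 0 lower, with 3.23% and 2.20% of all genes. In CDP against MDP, 1 of 12 was higher (Thy1 at 1.0) and 1 lower (Cd81), with 1.15% and 1.06% of all genes. In cMoP against MDP, 0 of 11 passed the threshold in either direction, where 1.44% of all genes were higher and 1.40% lower. At these list sizes each count rests on a few genes at most. Col3a1, the collagen ligand of GPR56, was between 6.39 and 6.61 on all arrays, and of the latrophilin ligands Flrt1 was between 6.59 and 7.02 and Tenm4 between 6.82 and 7.19, while Flrt2, Flrt3, Tenm1, Tenm2 and Tenm3 were under the floor on every array.

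Of the genes of G proteins and downstream signalling through which such receptors act, 19 of 24 measured reached the floor in each comparison. In the 3 comparisons among progenitors 0 of the 19 passed the threshold, where between 1.06% and 3.23% of all genes passed it in a given direction, so that a count of 0 lies near the background. In the classical monocyte against cMoP, the guanine nucleotide exchange factor Arhgef11 (1.02) and the arrestin Arrb1 (1.37) were higher and Gng12 (-1.16) lower, with a list median of 0.23 against -0.01 for all genes. Of all genes, 7.01% were higher and 4.40% lower in that comparison. In the nonclassical against the classical monocyte, Gnaq (-2.07) and Gng2 (-1.53) were lower and 0 were higher, with a median of -0.24 against -0.09, and with 9.82% of all genes lower and 3.55% higher. Gna13, a G protein subunit that couples this family to RhoA, was between 9.51 and 9.68 on all arrays, and Rhoa between 11.37 and 12.05. Gna12 was at 8.43, 8.39, 8.71, 8.16 and 7.27 from MDP to nonclassical monocytes.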

How the data were processed

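Total RNA of 5 sorted populations was labelled with biotin by the Nugen Encore kit and measured on expression arrays, per the labels' protocols. The deposited values are on a log2 scale, with 35556 probe sets on 5 arrays. This scale was inferred from their range of 1.59 to 14.24. The sources used here do not give the base of the logarithm, with which each fold would change, nor the background correction, normalization, summarization or software. Groups were taken from sample titles.

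Gene names came from the annotation of the platform, where 21789 probe sets carry 1 symbol, giving 19938 genes. Many values in the table are exactly tied between arrays, so small differences may be missing. Differences, calls and profiles were computed in Python 3.11.15 with numpy 2.4.6 and pandas 2.3.3, and the calling step was tested on simulated data. There are no replicates, so no p-values were computed.

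The genes described and the lists were chosen with earlier results of these data known. Named genes are the selected receptors, family members at the floor on some array, the 3 nearest profiles per receptor, the sorting genes and the members of the ligand, partner and G protein lists that passed the threshold in some comparison. Other list members, gene neighbours and promoter motifs were named after the values were seen. The alternatives were quantile normalization, median centring, 2 other floors, averaging all probe sets of a gene, and a threshold of 1.5 log2 units.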

Additional observations from a re-analysis of the deposited data

How the results depend on the processing

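Of 48 recomputed counts of receptors past a threshold, 44 stayed within 1.5 times the reported count. The 4 that did not concern the progenitors. Quantile normalization gave 4 receptors in cMoP against MDP, adding Adgre1 (1.0) and Adgrl4 (-1.03), and 1 in cMoP against CDP, without Adgrl4 (0.92). A threshold of 1.5 log2 units gave 1 receptor in CDP against MDP (Adgrl4) and 0 in cMoP against CDP. Of 90 recomputed differences of single receptors, 86 kept their side of the threshold and 0 of the called ones changed sign. The other exception was Adgre1 in cMoP against MDP, at 1.04 after median centring. Averaging all probe sets of a gene could not change the values of these receptors, which have 1 probe set each. Both totals include that setting, so part of the stability was fixed in advance. The cause of these shifts was not tested beyond the distance of each value from the threshold. With the floor at the upper quartile of 7.93, Adgre4 and Adgrg1 left the calls of the classical monocyte against cMoP, Adgre5 those of CDP against MDP and Adgrl4 those of the nonclassical against the classical monocyte. At that floor Adgrg1 also left the progenitor pattern and Adgre4 the monocyte pattern. At 1.5 log2 units Adgrl4 left the progenitor pattern and Adgrg1 no longer led MDP. No paired analysis was possible because each population has 1 array. Values under the floor have no firm order.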
